A study of Mus musculus with 3 samples.

Results

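The TGF-beta receptors and SMADs described here are 10 genes of the transforming growth factor beta (TGF-beta) pathway, namely Tgfb1, Tgfbr1, Tgfbr2, Smad2, Smad3, Smad4, Smad6, Smad7, Skil and Tgif1. All probe sets that the platform annotation assigned to 1 of these genes were read, which gave 18 of the 20380 probe sets with a single named gene and 10 of 12393 named genes. The cells were RAW264.7, a macrophage-like line derived from a mouse tumour, and their RNA was profiled on 1-colour arrays of Affymetrix type at 0, 2 and 12 h of LPS (bacterial lipopolysaccharide, the ligand of Toll-like receptor 4). Each time was 1 array, 3 in all, and the dose of LPS is not given in the sources used here. There is no untreated array for 2 or 12 h, so time in culture and LPS cannot be told apart. With no replicate, no test of the conditions was possible, and the culture-to-culture error is unknown. A bulk signal also cannot separate fewer cells expressing a gene from less RNA per cell.

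TGF-beta is secreted in a latent form and, once released, binds the type II receptor, TGFBR2, which recruits and phosphorylates the type I receptor, TGFBR1. The type I receptor phosphorylates the receptor-regulated SMADs, SMAD2 and SMAD3, and these join the common partner SMAD4 and enter the nucleus. SMAD6 and SMAD7 are inhibitory SMADs, and SKIL (also called SnoN) and TGIF1 are nuclear co-repressors of SMAD complexes. In macrophages the pathway is known for dampening inflammatory gene expression.

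Signals are linear and were set to a common trimmed mean per array. The 40th percentile of the scaled values, 35.0, served as a floor. Calls of higher or lower were made where a gene's brightest probe set (by mean log2 signal) differed at least 2-fold, with signals under the floor set to it. Probe sets differ in how strongly they bind, so signals are compared between times within a probe set and never between probe sets. The only error the arrays hold is the spread among probe sets of one gene, a pooled SD of 0.32 on the log2 scale for 2 h against 0 h (2708 genes), 0.34 for 12 h against 0 h (2730 genes) and 0.31 for 12 h against 2 h (2684 genes). All 9 macrophage markers examined were above the floor on every array. Among them Itgam was 2.27-fold and Adgre1 2.12-fold higher at 12 h than at 0 h, Spi1 was 1.99-fold higher at 2 h, and Fcgr3 was 1.51-fold lower at 12 h. All 5 T cell markers were under the floor on every array, as were 2 of 3 B cell, 4 of 5 fibroblast, 3 of 4 epithelial and 3 of 4 endothelial markers. The exceptions were Ms4a1, Col1a2, Krt8 and Kdr. As a check of the time labels, Tnf was 18.2-fold higher at 2 h and 7.30-fold higher at 12 h than at 0 h.

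Of the 10 genes, Tgfbr2 and Smad6 were at least 2-fold lower at 2 h than at 0 h, and none was 2-fold higher. Among all 8422 measured genes, 1.69% were lower and 2.09% higher by the same rule. With the arrays set to one median instead, the split over all genes was 225 higher and 73 lower in place of 176 and 142, and neither Tgfbr2 (log2 difference -0.996) nor Smad6 (-0.95) kept 2-fold. At 12 h, 1 of the 10, Tgfbr1, was at least 2-fold lower than at 0 h and none was higher, against 2.40% lower and 3.01% higher among 8629 measured genes. At 1.5-fold, 4 of the 10 were lower at 12 h (Tgfbr1, Tgfbr2, Smad6 and Skil) and 1, Tgfb1, was higher, against 10.3% and 8.32% of all measured genes. All 10 had a probe set at or above the floor on every array, so every one could be compared. The median log2 difference over the 10 was -0.10 at 2 h, beside -0.10 over all measured genes, and -0.34 at 12 h, beside -0.05.

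**Figure D1:**
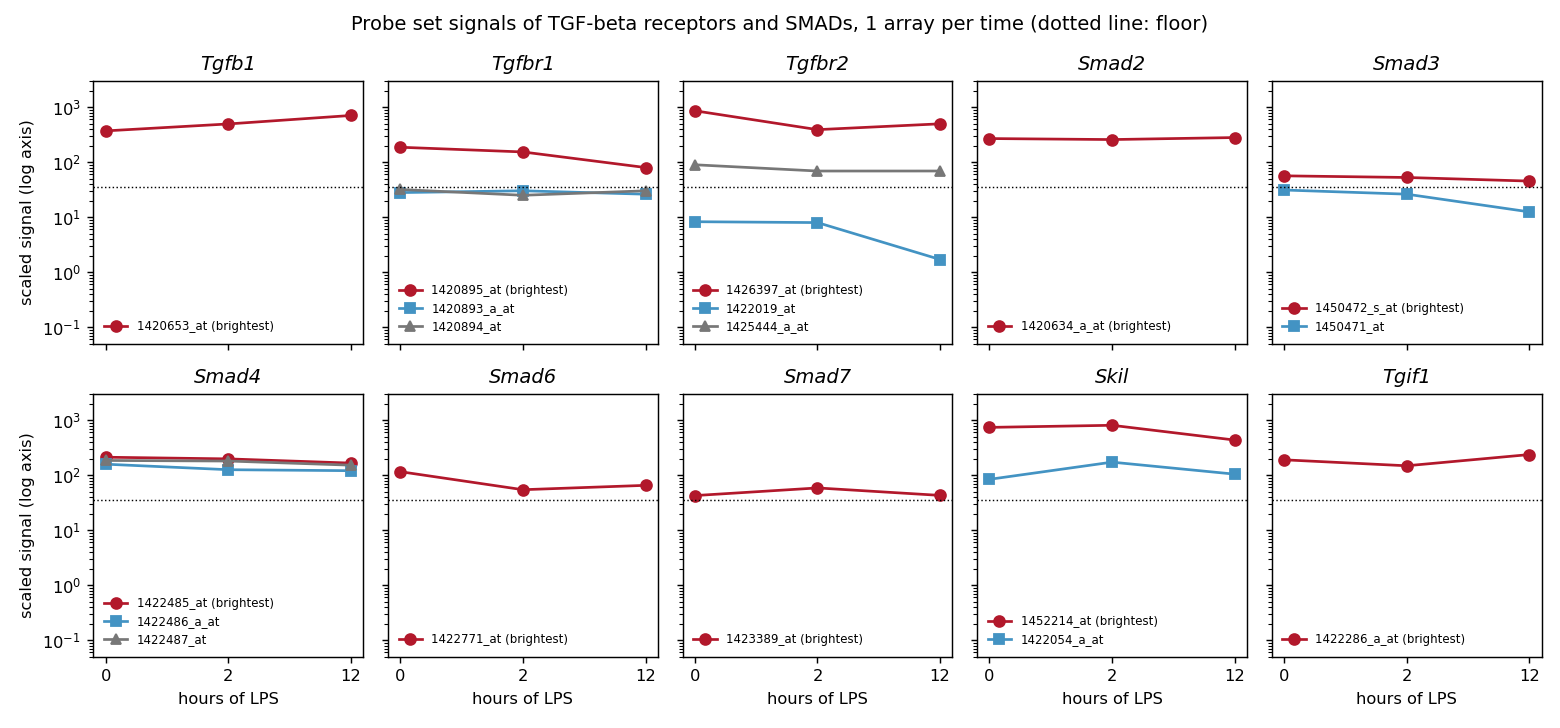
Scaled signal (log axis) of each of the 18 probe sets at 0, 2 and 12 h of LPS, 1 panel per gene and 1 array per time; the dotted line is the floor at 35.0. Tgfb1 is highest at 12 h, the brightest probe sets of both receptors are below their 0 h signal at 2 and 12 h, and the 2 probe sets of Skil take different courses.

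The ligand gene had the highest log2 difference of the 10 at 12 h. Tgfb1, read by probe set 1420653_at, had scaled signals of 372 at 0 h, 497 at 2 h and 709.5 at 12 h. The signal was higher at each later time, 1.34-fold at 2 h (log2 difference 0.42) and 1.91-fold at 12 h (0.93) over 0 h. The 12 h value lies under the 2-fold mark and is larger than the 0.34 SD among probe sets. It was above that of 96.6% of measured genes, and it ranged from 0.90 to 0.98 over the processing alternatives. With only 1 probe set, Tgfb1 has no second reading on these arrays.

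By their brightest probe sets, both receptor genes were below their 0 h signals at 2 and 12 h, with the lowest signal at different times. Tgfbr2, which encodes the ligand-binding type II receptor, had signals of 863 at 0 h, 392 at 2 h and 500.0 at 12 h by its brightest probe set, 1426397_at. The lowest of the 3 was at 2 h. The difference from 0 h was 2.20-fold lower at 2 h (log2 -1.14) and 1.73-fold lower at 12 h (-0.79), and 0.78% of measured genes had a lower log2 difference at 2 h. A second Tgfbr2 probe set, 1425444_a_at, gave 90.0, 69.3 and 69.3, which is lower in the same direction but only 1.30-fold at either time. The gap between these probe sets at 2 h was 0.76 on the log2 scale, and 14.0% of genes with more than 1 such probe set had a gap as large. By the median over these probe sets Tgfbr2 was at -0.76, under 2-fold. A further probe set, 1422019_at, was under the floor on all arrays, at 8.29, 7.99 and 1.70.

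Tgfbr1 encodes the type I receptor, the kinase that phosphorylates SMAD2 and SMAD3. Its brightest probe set, 1420895_at, had signals of 188 at 0 h, 154 at 2 h and 80.1 at 12 h. The 12 h array was the low one. Tgfbr1 was 1.22-fold lower at 2 h than at 0 h (log2 -0.28), less than the 0.32 SD among probe sets, and 2.34-fold lower at 12 h (-1.23). Only 1.07% of measured genes had a lower log2 difference at 12 h. The call at 12 h held under every scaling and floor alternative, with log2 differences from -1.23 to -1.08. The probe set alternatives could not change it, because they read the same probe set. The other 2 probe sets, 1420893_a_at and 1420894_at, were between 25.1 and 32.0 on all arrays, under the floor, so the difference rests on 1 probe set.

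The SMADs that carry the receptor signal differed little between times. Smad2, read by 1420634_a_at, had signals of 269.7, 259 and 281 at 0, 2 and 12 h, all within 1.09-fold of each other. Smad3 was close to the floor, with 56.6, 52.9 and 45.5 by 1450472_s_at, a probe set whose suffix marks possible cross-hybridisation. Its log2 difference of -0.32 at 12 h is inside the SD among probe sets, and its other probe set, 1450471_at, was under the floor on all arrays (31.3, 26.3 and 12.5).

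Smad4, the partner shared by all signalling SMADs, had 3 probe sets above the floor, the most of any member. They read 213, 199 and 167 (1422485_at), 186, 182 and 153 (1422487_at) and 159, 126 and 121 (1422486_a_at) at 0, 2 and 12 h. Every one of them was lower at 12 h than at 0 h, by 1.28-fold, 1.22-fold and 1.31-fold. Their log2 differences lay within 0.11 of each other. That agreement concerns the probe sets of 1 pair of arrays and does not include the error between cultures. At 2 h the log2 differences of Smad2, Smad3 and Smad4 were -0.060, -0.10 and -0.10, and all 3 turned positive, up to 0.083, with the arrays set to one median.

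The inhibitory SMADs took opposite directions at 2 h. Smad6 had signals of 116 at 0 h, 54.7 at 2 h and 65.6 at 12 h (1422771_at, its only probe set). It was 2.13-fold lower at 2 h than at 0 h (log2 -1.09) and 1.77-fold lower at 12 h (-0.83), and 1.03% of measured genes had a lower value at 2 h. Smad7, which blocks TGFBR1 and is itself a classical target of the pathway, had signals of 42.8, 58.9 and 43.1 (1423389_at). It was 1.38-fold higher at 2 h than at 0 h (log2 0.46) and 1.01-fold higher at 12 h. All 3 signals of Smad7 were near the floor. With a floor at the 60th percentile Smad7 was under it on every array, and that of Smad6 was -0.46 on the log2 scale at both times. Smad6 was also under 2-fold at 2 h with quantile normalization (-0.96) and with a pseudocount of 16 (-0.90).

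**Figure D2:**
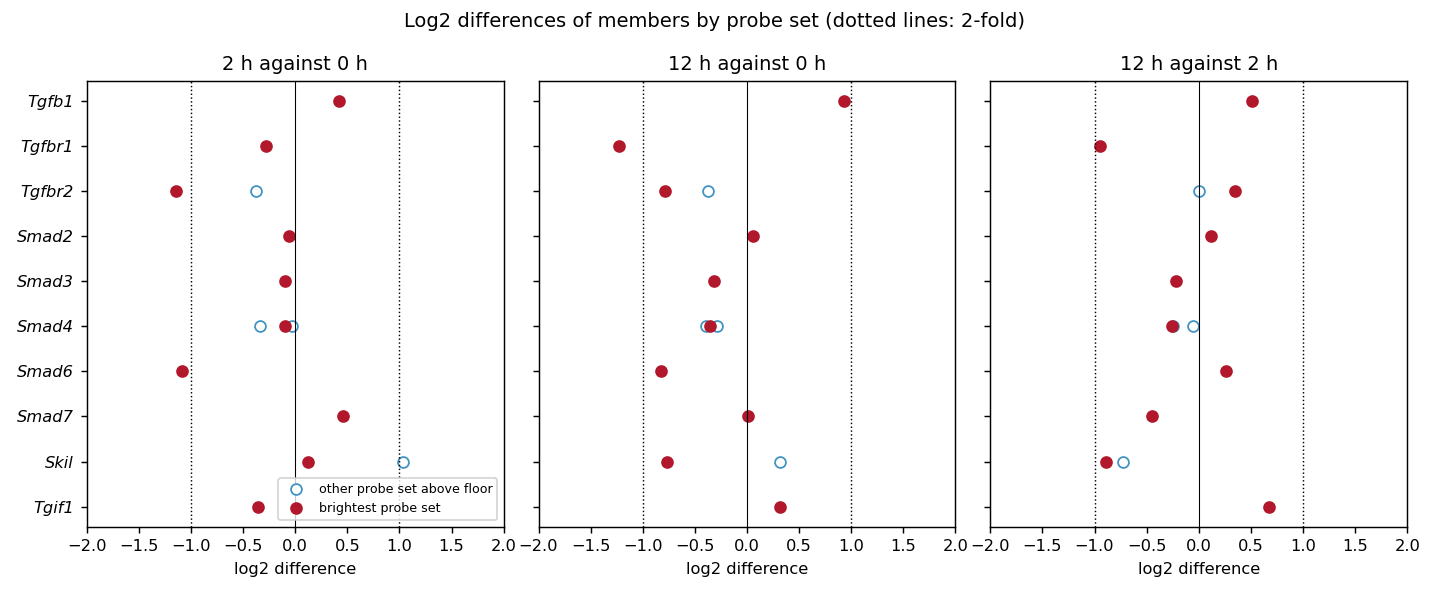
Log2 difference of each member by probe set for 2 h against 0 h, 12 h against 0 h and 12 h against 2 h; filled points are the brightest probe set, open points other probe sets above the floor on at least 1 array of the pair, and dotted lines mark 2-fold. Tgfbr2 and Smad6 lie beyond the lower line at 2 h and Tgfbr1 at 12 h, while the 2 points of Skil lie 0.91 apart at 2 h and 1.08 apart at 12 h.

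The co-repressor Skil gave different answers by probe set. The brightest, 1452214_at, had signals of 743 at 0 h, 812 at 2 h and 437 at 12 h, a log2 difference of 0.13 at 2 h and -0.77 at 12 h (1.70-fold lower). The dimmer, 1422054_a_at, had 84.4, 173 and 105, which is 2.05-fold higher at 2 h than at 0 h (log2 1.04) and 1.24-fold higher at 12 h (0.31). Thus the first was low at 12 h and the second high at 2 h. A gap as large as theirs was found in 7.90% of genes at 2 h and in 5.46% at 12 h. Between 2 and 12 h they went the same way, 1.86-fold and 1.65-fold lower at 12 h. Which transcripts each probe set reads was not tested. Counted by probe set rather than by gene, 1 of 14 measured member probe sets was at least 2-fold higher at 2 h (this one of Skil, against 2.25% of all probe sets) and 2 were lower (against 1.59%).

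Tgif1, a homeodomain co-repressor, had signals of 191 at 0 h, 149 at 2 h and 238 at 12 h (1422286_a_at). It was 1.28-fold lower at 2 h than at 0 h and 1.25-fold higher at 12 h, with log2 differences of -0.36 and 0.32. Those values are about the size of the SD among probe sets. The 12 h signal was 1.60-fold that at 2 h.

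Set against 2 h rather than 0 h, none of the 10 was 2-fold apart at 12 h, beside 1.98% lower and 2.65% higher among 8467 measured genes. Tgfbr1 (1.92-fold lower) and Skil (1.86-fold lower by its brightest probe set) came nearest, and Tgif1 was the highest. By their brightest probe sets, the signals of Tgfbr2 and Smad6 were 1.28-fold and 1.20-fold higher at 12 h than at 2 h and still below those at 0 h. The second Tgfbr2 probe set, 1425444_a_at, read 69.3 at both times. For Smad6 the log2 difference of 0.26 is inside the SD of 0.31 among probe sets, and that of Tgfbr2, 0.35, is just above it. The 3 comparisons share arrays, so they are not independent of one another.

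**Figure D3:**
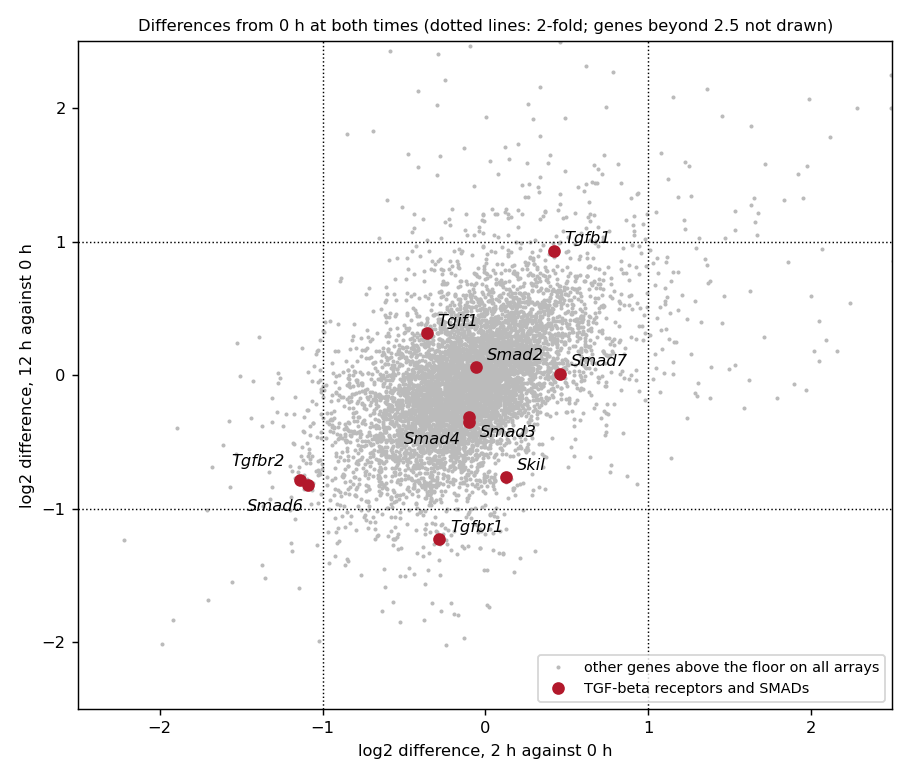
Log2 difference at 12 h against 0 h (vertical) plotted over that at 2 h against 0 h (horizontal); red points are the 10 members by their brightest probe set, grey points the other genes above the floor on all 3 arrays, and dotted lines mark 2-fold. Both axes use the same 0 h array. Tgfbr2 and Smad6 lie side by side at the left, Tgfbr1 below the lower line and Tgfb1 just under the upper line.

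The genes whose differences were nearest to those of the called members were taken from the 7318 genes above the floor on all 3 arrays, by Euclidean distance over the log2 differences at 2 and 12 h against 0 h. With 3 arrays this likeness rests on 2 numbers per gene, and many genes lie close by. For Tgfbr2 they were Pdik1l (distance 0.034), Abcg8 (0.046) and Phip (0.050). For Smad6 they were 4921524J17Rik (0.028), Cdkn2d (0.033) and Zbed3 (0.039), and for Tgfbr1 they were Acyp1 (0.021), Kif20a (0.035) and Hmgb3 (0.041).

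The promoter windows of the genes with the clearest differences are shown because Tgfbr2 and Smad6 were low together at 2 h, Tgfbr1 was low at 12 h and Tgfb1 was high at 12 h. They are RefSeq sequences of build GRCm38.p6, from 250 bases before to 50 after the annotated start, and 6 of the 10 members had an entry; Smad2, Smad4, Smad7 and Skil did not. Windows are 300 bases long, written 5′ to 3′ on the gene's strand. Capitals mark the SMAD box CAGAC, the palindromic SMAD element GTCTAGAC (added to the search after the windows were read) and the GC box GGGCGG, the motif of Sp1-type factors, each on either strand. Tgfbr1 has a further annotated start, at chr4:47385966-47386265, that is not printed.
Tgfbr2, chr9:116175314-116175613, minus strand: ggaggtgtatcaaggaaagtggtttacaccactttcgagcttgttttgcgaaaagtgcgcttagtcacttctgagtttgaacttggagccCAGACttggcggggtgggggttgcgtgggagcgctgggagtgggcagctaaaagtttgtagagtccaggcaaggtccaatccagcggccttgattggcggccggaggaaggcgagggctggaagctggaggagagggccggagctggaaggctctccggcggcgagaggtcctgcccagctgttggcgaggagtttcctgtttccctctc
Smad6, chr9:64022010-64022309, minus strand: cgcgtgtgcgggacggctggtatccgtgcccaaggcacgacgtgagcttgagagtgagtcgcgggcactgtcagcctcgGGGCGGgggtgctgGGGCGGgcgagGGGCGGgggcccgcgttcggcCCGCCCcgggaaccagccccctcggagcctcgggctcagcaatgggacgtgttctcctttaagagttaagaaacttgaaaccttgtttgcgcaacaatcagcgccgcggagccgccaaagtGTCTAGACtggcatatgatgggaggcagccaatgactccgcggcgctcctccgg
Tgfbr1, chr4:47352972-47353271, plus strand: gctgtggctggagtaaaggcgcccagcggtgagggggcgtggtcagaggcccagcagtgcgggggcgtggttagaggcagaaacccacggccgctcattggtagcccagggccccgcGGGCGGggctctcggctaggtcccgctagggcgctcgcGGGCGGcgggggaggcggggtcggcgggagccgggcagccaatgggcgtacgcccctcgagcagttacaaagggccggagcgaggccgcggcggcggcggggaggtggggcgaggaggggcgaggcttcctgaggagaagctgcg
Tgfb1, chr7:25686752-25687051, plus strand: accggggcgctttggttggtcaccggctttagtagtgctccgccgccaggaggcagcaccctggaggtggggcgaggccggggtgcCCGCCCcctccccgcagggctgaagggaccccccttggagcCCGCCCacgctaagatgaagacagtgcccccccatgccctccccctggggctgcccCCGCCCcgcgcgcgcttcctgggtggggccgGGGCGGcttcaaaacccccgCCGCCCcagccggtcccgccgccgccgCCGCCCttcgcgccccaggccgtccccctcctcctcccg

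These windows differed in composition and motifs. The Tgfbr2 window held 1 SMAD box and no GC box, with 59% G and C bases. The Smad6 window held 4 GC boxes and 1 palindromic SMAD element but no CAGAC, with 66.3% G and C. The Tgfbr1 window held 2 GC boxes and the Tgfb1 window 6, with 74.7% and 77% G and C, and neither of these held a SMAD motif of either form. The window of the further Tgfbr1 start held 1 SMAD box and no GC box, with 52% G and C. The median over all 32851 promoter windows in the table was 52.7%. A SMAD box was present in 49.6% of all windows and a GC box in 35.7%, so such matches are common. The palindromic element was in 0.21%. It was added to the search after the windows were read, so this share does not weigh its match in the Smad6 window. The AP-1 motif TGANTCA, in 7.81% of all windows, was in none of the 4, and the NF-kB consensus, in 8.46%, matched once, in the Tgfb1 window. None of the 5 motifs searched was in both the Tgfbr2 and the Smad6 window. A match is a description of letters and not of binding.

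Other genes of the pathway were read from 5 lists. Together 50 had a difference to measure at 2 h and 52 at 12 h. At 2 h, 5 of the 50 were at least 2-fold apart from 0 h, against 3.78% of all genes, and at 12 h 6 of 52, against 5.41%. For 12 h against 2 h the count was 8 of 50, against 4.63%. The calls at 2 h were in Ski and in the target genes, and those at 12 h in Thbs1, Mmp14, target genes and microglial genes.

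Among ligands and latency genes, 8 of the 18 on the array could be compared at 2 h and none was 2-fold apart (median log2 difference -0.11). At 12 h, 2 of 9 were higher and none lower (median 0.01). Thbs1 encodes thrombospondin 1, an activator of latent TGF-beta. It was under the floor at 0 and 2 h (12.4 and 23.1) and at 174 at 12 h, at least 4.97-fold higher than at 0 h, and its other probe set gave 3.11-fold. Its log2 difference at 12 h, 2.31, was 1.04 under the 60th percentile floor and 2.74 with a pseudocount of 16. Under the 20th percentile floor the other probe set became the brightest, and the value of 1.64 there is its 3.11-fold difference. Mmp14, a membrane-bound matrix metalloproteinase, had signals of 27.1, 59.4 and 159 and was at least 4.56-fold higher at 12 h than at 0 h. Under the 60th percentile floor Mmp14 was at 0.91 on the log2 scale, under 2-fold. Tgfb2 and Tgfb3, the other TGF-beta ligand genes, were under the floor on all arrays by their brightest probe sets. Of the brightest genes of the list, Nrros, which tethers latent TGF-beta on myeloid cells, had 539, 325 and 453, a log2 difference of -0.73 at 2 h and -0.25 at 12 h. Itgav, an integrin subunit that binds latent TGF-beta, had a log2 difference of 0.36 at 2 h and -0.61 at 12 h. Its other probe sets, also above the floor, gave 0.73 and 0.80 at 2 h but only -0.17 and -0.15 at 12 h. Furin, which cleaves the TGF-beta precursor, was at 0.12 and 0.51, and Inhbb, an activin subunit gene, at -0.12 and 0.29.

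Of 13 other receptors of the superfamily, 9 could be compared at 2 h and 10 at 12 h, and none was 2-fold apart from 0 h at either time (medians -0.28 and -0.15). Acvr2a, an activin type II receptor, was the nearest to it, with signals of 47.5, 93.7 and 41.8, 1.98-fold higher at 2 h than at 0 h and 2.24-fold lower at 12 h than at 2 h. Its other probe set was 1.49-fold lower at 12 h than at 2 h, and under the 60th percentile floor its log2 difference was 0.15 between 2 and 0 h and -0.15 between 12 and 2 h. At 2 h it passed 2-fold, with log2 differences of 1.13 with the arrays set to one median and 1.09 with quantile normalization. The activin and BMP receptor genes Acvr1, Acvr1b and Bmpr1a had log2 differences of -0.41, -0.17 and -0.28 at 2 h and of -0.32, 0.06 and -0.57 at 12 h. Of the other 4 probe sets of Bmpr1a, all were higher at 12 h than at 0 h, so its direction is uncertain. The co-receptor gene Eng was at -0.34 and -0.38.

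Among SMADs and their regulators, 1 of 20 measured genes was 2-fold apart from 0 h at 2 h and none at 12 h (medians -0.13 and -0.13). That gene was Ski, the relative of Skil and likewise a SMAD co-repressor. Ski had signals of 88.2 at 0 h, 29.4 at 2 h (under the floor) and 58.3 at 12 h, at least 2.52-fold lower at 2 h than at 0 h and 1.51-fold lower at 12 h. It was read by 1 probe set, and under the 60th percentile floor its log2 difference at 2 h was -0.06. By brightest probe sets, Fkbp1a, which binds type I receptors, was at 0.05 at 2 h and -0.05 at 12 h. In the same order, Strap was at 0.17 and -0.18, Stub1 at -0.16 and -0.26, and the adaptor Dab2 at -0.40 and -0.28. The other probe sets of Strap were at -0.14 and -0.18 at 2 h and at -0.66 and 0.11 at 12 h. The other one of Stub1 was at -0.56 and -0.75. Those of Fkbp1a above the floor were positive at both times, at most 0.53 at 2 h and 0.18 at 12 h. The other 2 probe sets of Dab2, also above the floor, were 1.23-fold and 1.96-fold lower at 2 h and 2.06-fold and 1.18-fold lower at 12 h than at 0 h.

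The target gene list mixed both directions. At 2 h, 3 of 9 measured genes were higher and 1 was lower (median 0.30), and at 12 h 1 was higher and 1 lower (median -0.14). Id2, whose protein blocks helix-loop-helix factors, had signals of 249, 31.6 (under the floor) and 124, and Id3 had 297, 542 and 176. So Id2 was lowest at 2 h, where Id3 was highest, and at 12 h Id2 was 2.01-fold and Id3 1.69-fold lower than at 0 h. At 2 h Id2 was at least 7.12-fold lower than at 0 h, with a log2 difference of -1.56 under the 60th percentile floor. The log2 difference of Id2 at 12 h ranged from -1.19 to -0.92 over the alternatives. Cdkn1a, a cell cycle inhibitor, had 596, 1325 and 638, and Junb, an AP-1 subunit, 229.6, 979 and 276. Both were high at 2 h, 2.23-fold and 4.26-fold over 0 h, and within 1.20-fold of it at 12 h. Myc, which TGF-beta represses in epithelial cells, had 59.1, 656 and 533 and was 11.1-fold and 9.02-fold higher at 2 and 12 h than at 0 h. Klf10, an early TGF-beta response gene, was at -0.85 at 2 h and -0.55 at 12 h on the log2 scale, Id1 at 0.30 and -0.14, Fn1 at -0.15 and 0.15 and Snai1 at least 0.25 lower at either time. Many of these genes also answer to other signals, so the list does not measure TGF-beta signalling alone.

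Of 8 genes that depend on TGF-beta in microglia, 4 could be compared and the other 4 were under the floor. None was 2-fold apart at 2 h, and 2 were lower at 12 h (median -0.72). Olfml3 had signals of 96.1, 128 and 29.4 and was at least 2.75-fold lower at 12 h than at 0 h. Under the 60th percentile floor its log2 difference was -0.18. Cx3cr1, the fractalkine receptor gene, had 547, 482 and 274, at the 2-fold mark exactly as rounded (2.00-fold lower), and its other probe set was 1.88-fold lower. Over the alternatives its log2 difference ran from -1.02 to -0.95. Tmem119 was at -0.44 and Gas6 at -0.19 at 12 h.

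**Figure D4:**
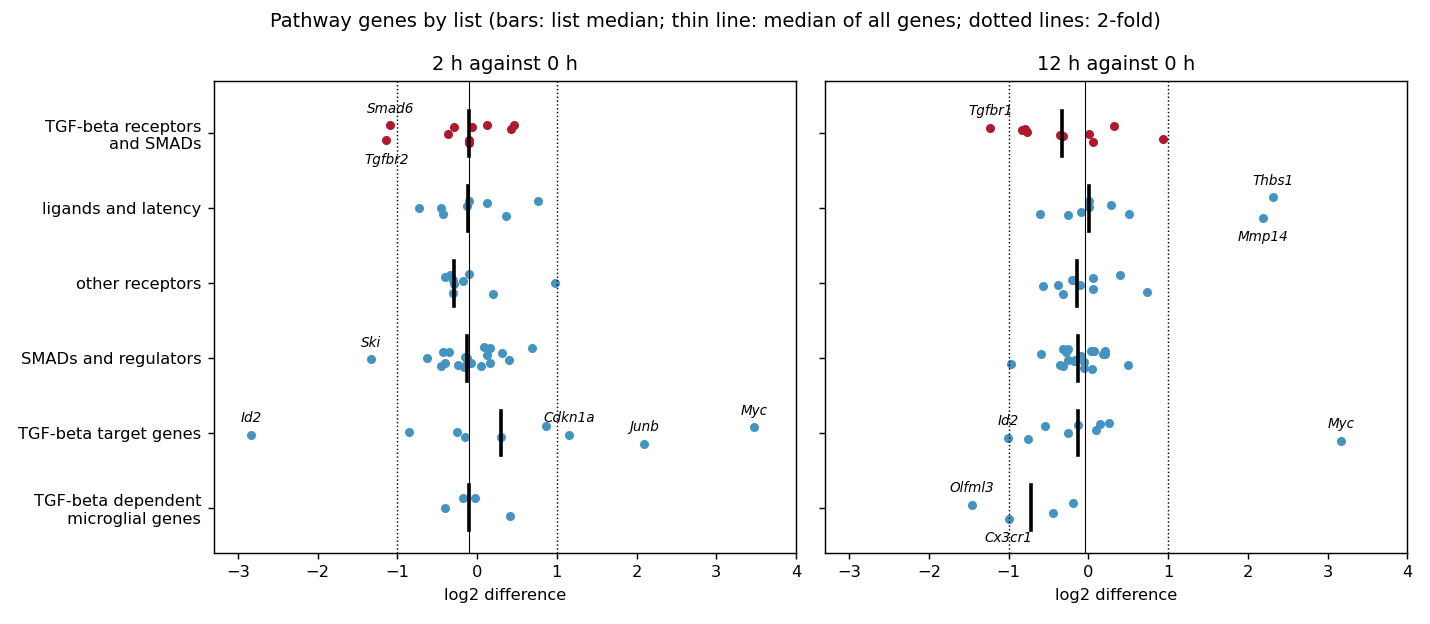
Log2 difference of each measured gene by its brightest probe set at 2 h (left) and 12 h (right) against 0 h, by list; thick bars are list medians, the thin line is the median of all measured genes and dotted lines mark 2-fold, with genes beyond them named. Genes under the floor on 1 array are drawn at their bound. The TGF-beta receptors and SMADs have a median of -0.34 at 12 h, and the target genes spread furthest at 2 h.

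**Figure D5:**
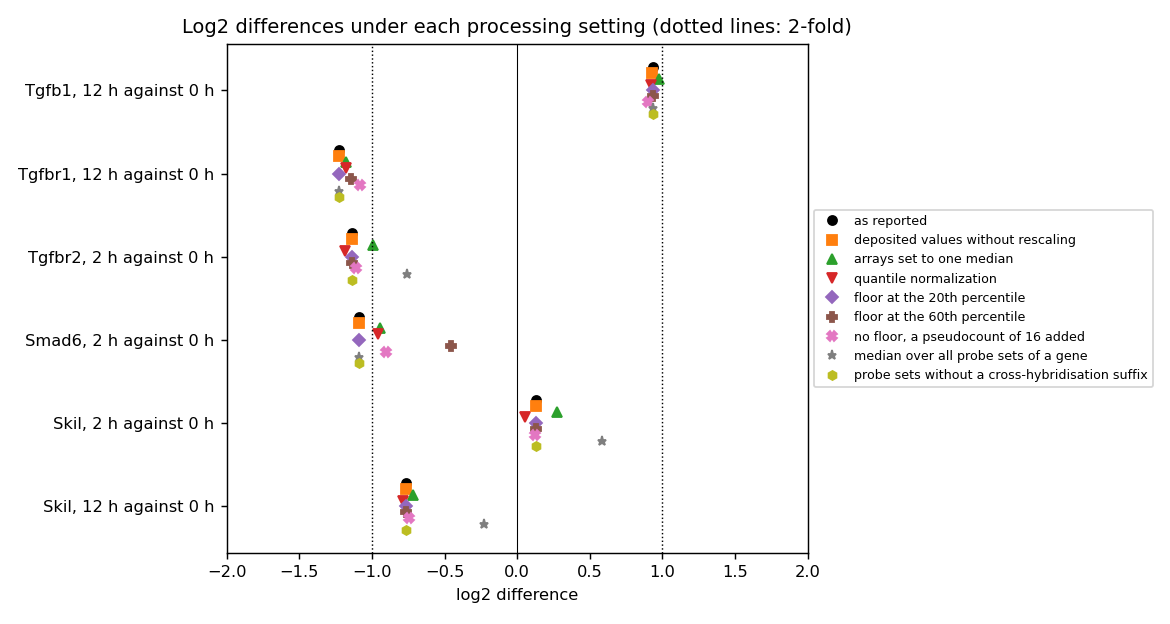
Log2 difference of Tgfb1, Tgfbr1, Tgfbr2, Smad6 and Skil for the comparison named at each line, with 1 mark for each of 9 processing settings; dotted lines mark 2-fold. Tgfbr1 at 12 h stays beyond the line in every setting drawn, while Tgfbr2 and Smad6 at 2 h cross it in some. The probe set alternatives could not move Tgfbr1.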

How the data were processed

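The deposited table holds 1 linear intensity per probe set and array, for 22690 probe sets including 64 controls, with no detection calls. Per the labels' protocols, target was made from 5 µg of total RNA by a modified Affymetrix procedure; no summarisation software is named there. The deposited arrays shared a 2% trimmed mean of 150.05, so a change in total mRNA would not be seen. Arrays were rescaled to one 2% trimmed mean over non-control probe sets (a change of at most 0.16%), floored at the 40th percentile and taken to log2 with Python 3.11.15, numpy 2.4.6, pandas 2.3.3 and scipy 1.17.1. Probe sets annotated to several genes (691) or not listed (1606) were left out, and 20351 of 20380 matched RefSeq gene identifiers. Gapdh, which has no probe set of its own outside the controls, was not used. Actb, a further check gene, was 1.13-fold higher at 2 h and 1.14-fold higher at 12 h than at 0 h by its brightest probe set. Its other probe set, 1419734_at, was 1.76-fold lower at 2 h and 1.65-fold higher at 12 h than at 0 h. Between 2 and 12 h that probe set was 2.90-fold higher at 12 h. The number of arrays, 1 per time, limits the precision, and no p-value was computed. The counting code was run on simulated data, made from the 0 h array with added noise and set folds. These hold no error between cultures, so they do not show how reliable calls near 2-fold are. Genes named beside the members were those at least 2-fold apart in a comparison, up to 4 more per list with the highest mean signal, and the 3 nearest to each called member. Members and lists were chosen with earlier results of these data known. Alternatives varied the scaling, floor, probe set choice and fold.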

Additional observations from a re-analysis of the deposited data

Results flagged for a closer look

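Smad2, Skil and Tgif1 are listed because their brightest probe sets differed from 0 h in opposite directions at 2 and 12 h. The log2 differences at 2 and 12 h were -0.060 and 0.061 for Smad2, 0.13 and -0.77 for Skil, and -0.36 and 0.32 for Tgif1. With 1 array per time the difference between the times was not tested. Smad2 turned positive at 2 h with the arrays set to one median, and the other probe set of Skil was higher at both times.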

How the results depend on the processing

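There were 230 values of members under an alternative scaling, floor or probe set choice. Of these, 225 moved by less than the SD among probe sets and 5 by more. Many of the 225 were fixed in advance, so their number is not a measure of robustness. Rescaling changed the arrays by at most 0.16%, and the 20th percentile floor left every member value as it was. The median over probe sets cannot move a gene with 1 measured probe set. None of the called differences changed sign. The moved values were those of Smad6 at 2 and 12 h under the 60th percentile floor (-0.46 each) and, by the median over probe sets, those of Tgfbr2 at 2 h (-0.76) and Skil at 2 h (0.58) and 12 h (-0.23). At 2 h against 0 h, 2 members were at least 2-fold apart. The number was 0 with the arrays set to one median, 1 each with quantile normalization, the 60th percentile floor, a pseudocount of 16 and the median over probe sets, and 0 at 3-fold. At 12 h against 0 h it was 1, or 5 at 1.5-fold and 0 at 3-fold. For 12 h against 2 h it was 0, or 1 with one median and 3 at 1.5-fold. Over all genes, 1.5-fold gave 472 higher and 812 lower of 8422 at 2 h. At 12 h it gave 718 and 893 of 8629, and for 12 h against 2 h 861 and 546 of 8467. The 3-fold counts were 87 and 13, 101 and 27, and 55 and 48 in the same order. With one median, 12 h against 2 h gave 178 higher and 226 lower of 8518. Among pathway genes the 5 calls at 2 h (3 higher, 2 lower) became 7 with one median (5 higher, 2 lower). They were 6 with quantile normalization, 10 under the 20th percentile floor, 4 under the 60th, 12 at 1.5-fold and 3 at 3-fold. The 6 at 12 h became 4 each with one median, the 60th percentile floor and a pseudocount of 16. They were 5 with quantile normalization, 8 under the 20th percentile floor, 11 at 1.5-fold and 3 at 3-fold. The 8 for 12 h against 2 h became 12 under the 20th percentile floor, 4 under the 60th, 14 at 1.5-fold and 5 at 3-fold. Median scaling moved the median of all genes at 2 h to 0.03, in place of -0.10. Over all genes at 2 h, 350 were higher and 510 lower under the 20th percentile floor, in place of 176 and 142, and 200 and 86 with quantile normalization. Where counts moved, the cause was not tested. A higher floor, or leaving out probe sets with a cross-hybridisation suffix, left fewer genes to compare. At 2 h all 10 members were still compared with one median, quantile normalization, the pseudocount and the median over probe sets. There the counts fell because values of Tgfbr2 or Smad6 were under 2-fold. Signals near the floor, as for Smad3 and Smad7, limit what can be measured. No paired analysis was possible because each time has 1 array.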
